A study of Mus musculus with 6 samples.

Results

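The matrix metalloproteinases (*Mmp* genes), the ADAMTS proteases with their ADAMTS-like relatives, the tissue inhibitors of metalloproteinases (*Timp1* to *Timp4*) and *Reck* were examined in inguinal white adipose tissue (iWAT), the subcutaneous fat depot of the mouse flank. Members were taken by gene symbol, and where a symbol had several rows the row with the most reads over all 6 libraries stood for it. This gave 36 of the 19509 symbols in the table: 11 *Mmp*, 17 *Adamts*, 3 *Adamtsl* and 4 *Timp* symbols, and *Reck*. Bulk RNA-Seq counts were available for 6 libraries, of which the labels put 3 in the group *Lexis*-AdWT and 3 in *Lexis*-AdKO, each named below by group and number. All came from mice on a C57BL/6 background that had eaten a Western diet for 12 weeks. *Lexis* is a long noncoding RNA, and the AdKO mice carried floxed *Lexis* alleles and a Cre driven by the adipocyte gene *Adipoq*, so that only adipocytes are targeted and the other cells of the depot keep the gene. The AdWT mice were littermates with the floxed alleles and no Cre, and the labels give neither the age nor the sex of the animals behind these libraries. The study calls the libraries of a group biological replicates.

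The libraries held between 14470542 and 17882713 counts, and no 2 of them were duplicates. The targeted gene was looked at first. The row 4930412L05Rik, a minus-strand gene at chr4:53217938-53230729 (NCBIM37, the build also called mm9) that lies beside *Abca1*, as *Lexis1* does in RefSeq's annotation of a later build, had 8, 9 and 8 counts in the libraries labelled AdWT. It had 21, 11 and 13 counts in those labelled AdKO, so it was not lower there. These counts therefore do not check the labels, and every direction below is a direction between libraries so labelled.

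Fat tissue enlarges inside a matrix of collagens, proteoglycans and microfibrils, and the enzymes described here cut that matrix. MMPs are zinc proteases made as inactive precursors, which cleave collagens, laminins, elastin and one another. ADAMTS proteases carry the same kind of zinc site beside thrombospondin repeats and cut proteoglycans such as versican and aggrecan, or procollagens, whereas ADAMTS-like proteins keep the repeats, lack the protease part and bind microfibrils. TIMPs plug the active site of these enzymes, and RECK is an inhibitor anchored to the cell surface.

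The difference between enzyme, relative and inhibitor can be read from short coding sequences, which are shown for proteases of both families and for the 4 *Timp* genes. In the lines below, read 5′ to 3′ on the coding strand of the NCBIM37 annotation, capitals mark the codons of the 3 histidines that hold the catalytic zinc and of the glutamate that takes part in catalysis.
Mmp3, chr9:7449775-7449807, plus strand: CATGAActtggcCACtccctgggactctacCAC
Mmp13, chr9:7276573-7276605, plus strand: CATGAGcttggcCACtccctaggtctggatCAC
Mmp12, chr9:7352914-7352946, plus strand: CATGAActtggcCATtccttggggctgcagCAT
Adamts5, chr16:85878260-85888071, minus strand: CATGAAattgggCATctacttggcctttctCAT
Adamts15, chr9:30718840-30719275, minus strand: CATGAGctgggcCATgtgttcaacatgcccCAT
Adamts12, chr15:11171284-11185319, plus strand: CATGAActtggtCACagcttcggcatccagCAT
Adamts9, chr6:92855279-92858487, minus strand: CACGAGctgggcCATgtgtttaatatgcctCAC
In the 4 *Adamts* genes an intron interrupts these 33 bases, so the coordinates span it, whereas the 3 *Mmp* sites lie in 1 exon each. A search of coding sequences on the coding strand for histidine, glutamate, any pair of residues, histidine, any pair, glycine or asparagine, any pair and histidine found the site in 23 of 23 *Mmp* and 18 of 19 *Adamts* gene models. It was found in 0 of 5 *Adamtsl* gene models and in 74 of 21613 coding genes in all (0.342%). *Adamts15* and *Adamts9* are among 5 *Adamts* genes with asparagine where the others have glycine. *Mmp3* shared 27 of the 33 bases with *Mmp13* and 26 with *Mmp12*.

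The inhibitors are shown at the start of the mature protein, whose first cysteine sits on the zinc of the bound enzyme, with the codons of the first and the second cysteine in capitals.
Timp2, chr11:118216300-118216326, minus strand: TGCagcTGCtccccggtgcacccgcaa
Timp3, chr10:85763668-85763694, plus strand: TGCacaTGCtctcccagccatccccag
Timp4, chr6:115201683-115201709, minus strand: TGCagcTGTgcgcctgcgcacccccag
Timp1, chrX:20448237-20448263, plus strand: TGTagcTGTgccccaccccacccacag
The 4 sequences encode cysteine, serine or threonine, cysteine, a residue that varies, proline, a residue that varies, histidine, proline and glutamine. This pattern covers the 4 *Timp* genes, so finding it there is no test. It was found in no other of the 21613 coding genes. *Timp2* shared 20 of these 27 bases with *Timp4* and 17 with *Timp3*.

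Of the 36 members, 16 passed the filter on low counts and were tested. Levels are given in CPM, counts scaled to a common library size, after TMM scaling, a correction for library composition, and the levels of genes are ordered as CPM per kilobase of exon, while shares and ratios between genes are of CPM and depend on gene length too. On that per-length scale *Timp2* was highest, with a mean level of 257 (198 to 311 over the 6 libraries), followed by *Adamts5* at 145 (103 to 180). *Timp4* at 100 (71.3 to 154), *Timp3* at 92.7 (74.5 to 118) and *Mmp3* at 90.3 (32.8 to 143) overlapped each other and *Adamts5* across libraries. A gap then separated these from *Adamts15* at 15.3 (11.2 to 18.1) and *Adamts12* at 14.8 (12.5 to 16.9), which could not be ordered. *Adamts9*, *Adamtsl2* and *Adamtsl3* had mean per-length levels of 6.30, 6.13 and 2.43, and the other 6 tested members lay between 0.0724 (*Adamtsl1*) and 0.439 (*Mmp13*). Of the members, all of which have a row, the upper group thus held 3 inhibitors, 1 ADAMTS protease and 1 MMP. Genes of the family without a row, such as *Adamts1*, *Adamts2*, *Mmp2* and *Mmp14*, could not appear in it.

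**Figure D1:**
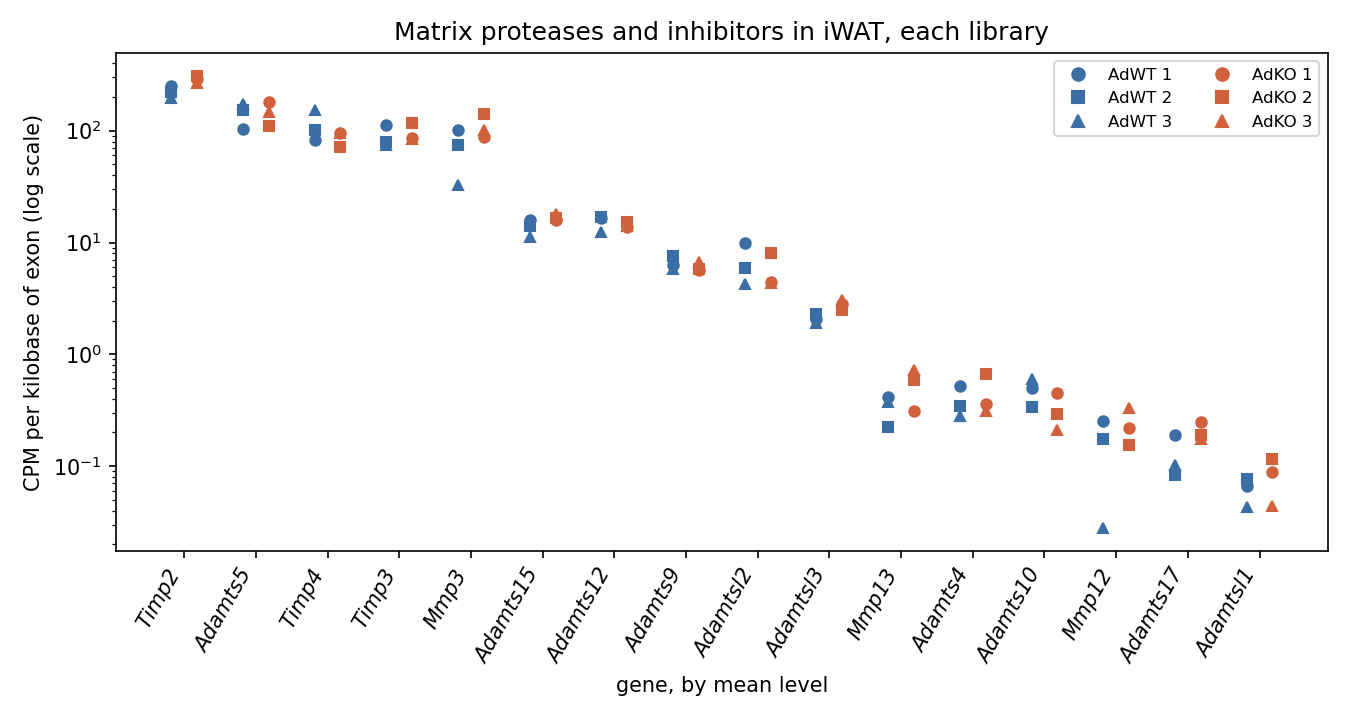
Level of the 16 tested members in each library, as CPM per kilobase of exon on a log scale, ordered by mean level (blue, AdWT; red, AdKO; shape gives the library number). *Timp2*, *Adamts5*, *Timp4*, *Timp3* and *Mmp3* form an upper group, and in 14 of the 16 members the blue and red points overlap.

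The comparison of AdKO with AdWT asks whether loss of *Lexis* in adipocytes alters these genes. Over all 9872 tested rows, 0 (0.0%) had an adjusted *P* under 0.05 by the quasi-likelihood test of edgeR, adjusted by the Benjamini-Hochberg method, while DESeq2 called 27, and 566 rows (5.73%) had an unadjusted *P* under 0.05 in edgeR. No member passed the adjusted test in either tool, so no member is said to have changed, and the values below are given as higher or lower with their errors. At an unadjusted *P* under 0.05 there were 2 members of 16 (12.5%), *Timp2* and *Adamtsl3*, both higher in AdKO, against 2.76% of rows higher and 2.98% lower among all rows. The same 2 members were the ones whose AdKO and AdWT values did not overlap, against 11.9% of all rows in either direction and 6.16% with AdKO higher. Among the 16, the log2 fold change was above 0 in 11 and below 0 in 5, against 51.7% of all rows above 0, and 1 of the 5, *Adamts10*, had rows in opposite directions. The median was 0.26 against 0.007 over all rows, but it was 0.13 without AdKO 2, 0.15 without AdWT 3 and 0.42 without AdWT 1.

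**Figure D2:**
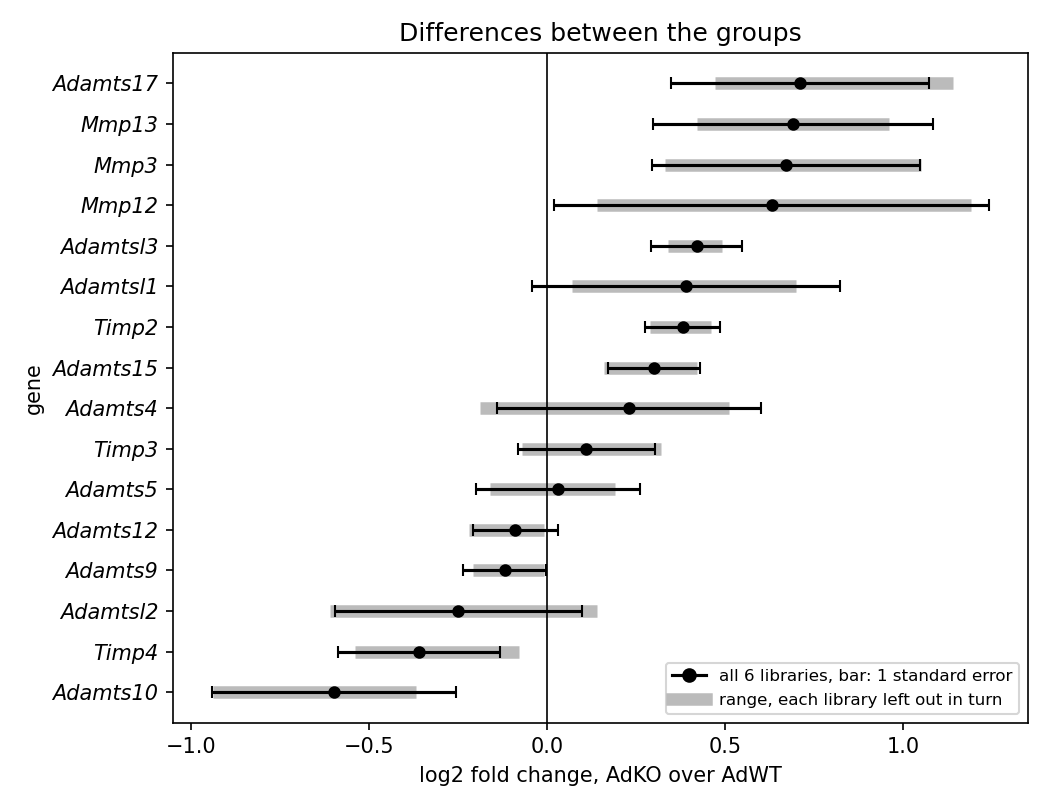
Log2 fold change of AdKO over AdWT for the 16 tested members (points, all 6 libraries; bars, 1 standard error), with the range when each library is left out in turn (grey). The grey range crosses 0 for *Adamts4*, *Timp3*, *Adamts5* and *Adamtsl2*, and is narrow for *Timp2* (0.29 to 0.46) and *Adamtsl3* (0.34 to 0.49).

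Among the inhibitors, *Timp2*, which both inhibits MMPs and helps to activate pro-MMP2 at the cell surface, had 968, 871 and 770 CPM in AdWT and 1130, 1210 and 1050 CPM in AdKO. All 3 AdKO libraries were above all 3 AdWT libraries. The means were 870 ± 99.0 and 1130 ± 81.8 CPM (SD, *n* = 3 each), a 1.30-fold level with a log2 fold change of 0.38 (SE 0.106). The edgeR test gave an unadjusted *P* of 0.00853 and an adjusted *P* of 0.847, and the exact permutation test, two-sided, gave 0.1, the smallest that 3 against 3 allows. *Timp2* had between 11504 and 18374 counts a library, so counting error was small beside the spread between libraries.

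*Timp3*, the TIMP that binds to the matrix itself and also inhibits ADAMTS proteases and the sheddase ADAM17, had 924, 651 and 607 CPM in AdWT and 703, 957 and 687 CPM in AdKO. The groups overlapped, and 1 library of each, AdWT 1 and AdKO 2, stood above the other four (log2 fold change 0.11, SE 0.192, adjusted *P* = 0.923). *Timp4*, known for its expression in adipose tissue and heart, had 118, 143 and 218 CPM in AdWT and 136, 101 and 136 CPM in AdKO. Its log2 fold change of −0.36 (SE 0.227, adjusted *P* = 0.853) became −0.08 without AdWT 3, the library with the highest value. The ratio of *Timp2* to *Timp3* CPM ran from 1.05 to 1.34 in AdWT and from 1.26 to 1.61 in AdKO, so the make-up of the inhibitor pool overlapped between the groups.

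*Timp1*, the inhibitor that is best known for its induction in inflamed tissue, had 0 counts in all 6 libraries, which allows at most 0.179 to 0.206 CPM a library at a limit of 3 counts. *Reck* had 11 counts over the 6 libraries, 5 of them in AdKO 3, and was not tested. A row at 0 in this table need not mean that the tissue lacks the RNA: *Pnpla2*, the adipocyte triglyceride lipase, and *Emr1*, a macrophage marker, were also listed at 0 in every library, and *Spp1* had 1 count in all. *Timp1*, *Timp3* and *Timp4* each lie within a synapsin gene on the opposite strand (*Syn1*, *Syn3* and *Syn2*, with 11, 672 and 354 counts in all), and whether the counting used strand was not given in the sources used here.

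Of the MMPs with a row, most reads were at *Mmp3*, stromelysin-1, a protease of broad specificity that cuts proteoglycans, laminin and fibronectin and activates other pro-MMPs. It had 182, 134 and 58.9 CPM in AdWT and 158, 256 and 184 CPM in AdKO. AdWT 3 was the lowest library and AdKO 2 the highest, and the other four libraries ran together across the groups. The means were 125 ± 62.2 and 200 ± 50.9 CPM (SD, *n* = 3 each), with a log2 fold change of 0.67 (SE 0.376, adjusted *P* = 0.853) and an exact permutation *P* of 0.2. Without AdWT 3 the log2 fold change was 0.33, and without AdWT 1 it was 1.05, so the size of the difference rested on which AdWT library was counted.

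*Mmp12*, the macrophage metalloelastase, had 28, 21 and 3 counts in AdWT and 23, 17 and 40 counts in AdKO. Its CPM differed 12.0-fold between the lowest library, AdWT 3, and the highest, AdKO 3, the widest range of the 16 members, and the groups overlapped. The log2 fold change of 0.63 (SE 0.610, adjusted *P* = 0.885, exact permutation *P* = 0.5) was 0.14 without AdWT 3. *Mmp13*, the main collagenase of mice, had 17, 10 and 15 counts in AdWT and 12, 24 and 32 counts in AdKO, with a log2 fold change of 0.69 (SE 0.394, adjusted *P* = 0.853). The log2 fold change of *Mmp13* ran from 0.42 without AdKO 3 to 0.96 without AdKO 1. The 3 tested MMPs had positive log2 fold changes, each within 2 standard errors of 0, and without AdWT 3 these were 0.33 for *Mmp3*, 0.14 for *Mmp12* and 0.76 for *Mmp13*.

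These 3 genes are neighbours in the *Mmp* cluster of chromosome 9, but their rows differed widely in depth. *Mmp13* (chr9:7272514-7283333) had 110 counts over the 6 libraries, *Mmp12* (chr9:7344381-7369499) had 132 and *Mmp3* (chr9:7445822-7455972) had 15167. In the same cluster *Mmp1a*, *Mmp1b* and *Mmp20* had 0 counts and *Mmp8*, the neutrophil collagenase (chr9:7558429-7568486), had 14. *Mmp7*, *Mmp10* and *Mmp27*, also of this cluster, had no row and were not analysed here, so *Mmp3* held nearly all reads only of the cluster genes with a row.

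*Adamts5*, a main aggrecan- and versican-cutting protease, had the most reads of the ADAMTS genes with a row. Its levels were 832, 1250 and 1400 CPM in AdWT and 1460, 895 and 1200 CPM in AdKO. The means of 1160 ± 293 and 1180 ± 281 CPM (SD, *n* = 3 each) differed by far less than the spread within a group, and the log2 fold change was 0.03 (SE 0.230, adjusted *P* = 0.983). The 2 libraries with the lowest *Adamts5*, AdWT 1 and AdKO 2, were the 2 with the highest *Timp3* and the highest *Adamtsl2*.

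*Adamts15*, a versican-cutting protease of the same subgroup, had 95.0, 82.9 and 66.6 CPM in AdWT and 93.9, 99.1 and 107 CPM in AdKO. The groups overlapped by a small margin, AdWT 1 against AdKO 1 (log2 fold change 0.30, SE 0.130, unadjusted *P* = 0.0543, adjusted *P* = 0.851). Without AdWT 3 its log2 fold change was 0.16. *Adamts12*, which cuts cartilage oligomeric matrix protein (COMP), had 103, 106 and 77.9 CPM in AdWT and 86.8, 94.7 and 88.3 CPM in AdKO. *Adamts9*, which cuts versican and aggrecan, had 79.4, 94.7 and 72.3 CPM in AdWT and 70.8, 73.3 and 83.2 CPM in AdKO. Both had log2 fold changes close to 0, −0.09 (SE 0.120) and −0.12 (SE 0.116), with adjusted *P* of 0.904 and 0.885, and *Adamts9* had the narrowest range over libraries of the 16, 1.34-fold. Exons of *Adamts9* overlap those of A730049H05Rik on the opposite strand, a row with 200 counts in all.

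Of the ADAMTS proteases with few reads, *Adamts4*, an aggrecan-cutting enzyme, had 2.49, 1.67 and 1.34 CPM in AdWT and 1.72, 3.23 and 1.50 CPM in AdKO (log2 fold change 0.23, SE 0.370, adjusted *P* = 0.913). *Adamts17*, one of the relatives tied to microfibrils, had 1.37, 0.598 and 0.736 CPM in AdWT and 1.79, 1.38 and 1.26 CPM in AdKO, with a log2 fold change of 0.71 (SE 0.362, adjusted *P* = 0.853). AdWT 1 lay among the AdKO values of *Adamts17*, and its log2 fold change was 1.14 without that library and 0.47 without AdWT 2. *Adamts10*, another microfibril-associated protease, had the most rows of a member, 11, and 2 of them were tested. Its row with the most reads had 2.75, 1.85 and 3.28 CPM in AdWT and 2.47, 1.58 and 1.14 CPM in AdKO (log2 fold change −0.60, SE 0.343, adjusted *P* = 0.853). The other tested row had 1.44, 1.20 and 1.07 CPM in AdWT and 1.79, 1.84 and 1.38 CPM in AdKO (log2 fold change 0.43, SE 0.245, adjusted *P* = 0.853). These rows of 1 gene pointed in opposite directions, and with all rows of the symbol summed the log2 fold change was −0.18, so no direction is given for *Adamts10*.

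Among the ADAMTS-like genes, *Adamtsl3*, which encodes a secreted matrix glycoprotein, had 16.1, 17.7 and 14.6 CPM in AdWT and 21.7, 19.2 and 23.7 CPM in AdKO. All 3 AdKO libraries were above all 3 AdWT libraries. The means were 16.1 ± 1.55 and 21.5 ± 2.29 CPM (SD, *n* = 3 each), a 1.33-fold level with a log2 fold change of 0.42 (SE 0.128). The edgeR test gave an unadjusted *P* of 0.0131 and an adjusted *P* of 0.851, and the exact permutation test gave 0.1. *Adamtsl2*, whose product binds the TGF-β-binding protein LTBP1 and fibrillin-1, had 78.5, 47.3 and 33.9 CPM in AdWT and 35.5, 64.1 and 34.6 CPM in AdKO (log2 fold change −0.25, SE 0.347, adjusted *P* = 0.904). AdWT 1 and AdKO 2 were high and the others low, a split that crossed the groups. *Adamtsl1* was lowest in level, at 0.720, 0.837 and 0.468 CPM in AdWT and 0.962, 1.25 and 0.481 CPM in AdKO.

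**Figure D3:**
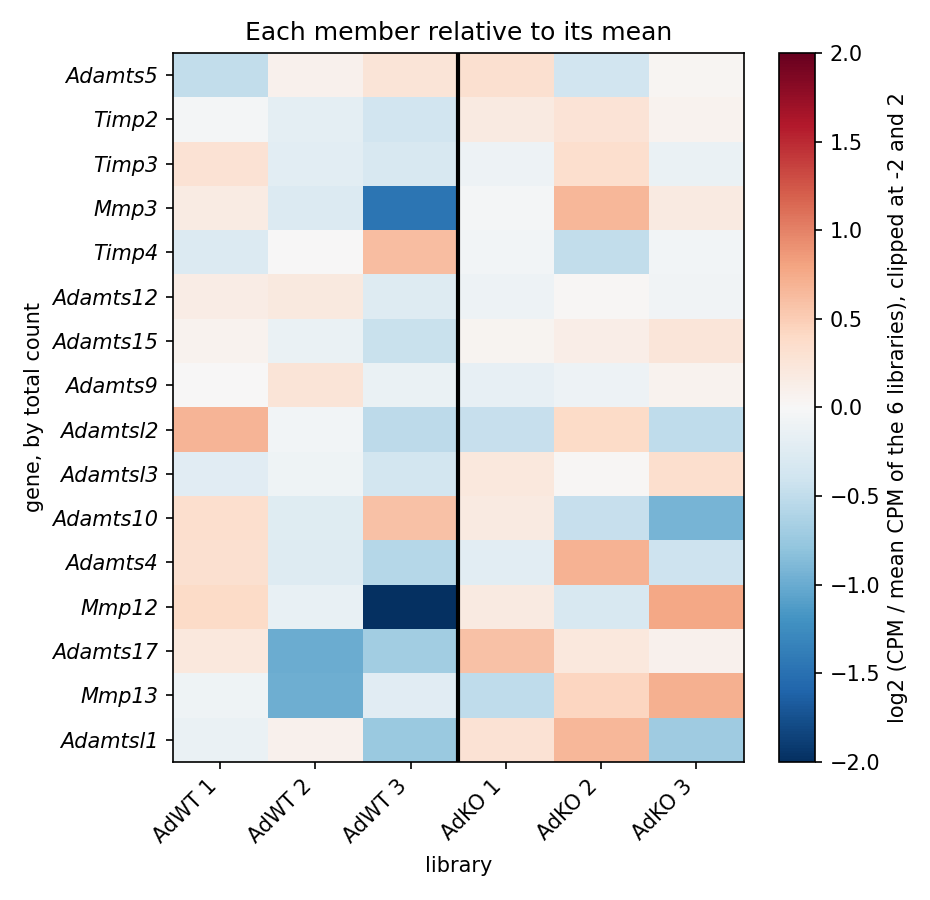
CPM of each tested member in each library relative to its mean over the 6 libraries, on a log2 scale (red, above the mean; blue, below). AdWT 3 is the lowest library for 10 of the 16 members, while *Timp4* and *Adamts10* are highest there.

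Several members differed as much between libraries of a group as between the groups. AdWT 3 was the lowest library for 10 of the 16 tested members and the highest for 2, *Timp4* and *Adamts10*. AdKO 2 was the highest for 5 members and AdKO 3 for 4. *Mmp3* and *Timp4* were opposed at both ends: AdWT 3 had the lowest *Mmp3* and the highest *Timp4*, and AdKO 2 had the highest *Mmp3* and the lowest *Timp4*. The ratio of *Mmp3* to *Timp4* CPM was 1.54, 0.939 and 0.271 in AdWT and 1.16, 2.54 and 1.36 in AdKO, and the groups overlapped. The 36 members together held 0.354%, 0.318% and 0.324% of the counts in AdWT and 0.393%, 0.378% and 0.375% in AdKO, and their summed CPM was 3320 to 3410 in AdWT and 3600 to 3900 in AdKO. These sums did not overlap between the groups and are given as a description with no test. In every library, *Adamts5*, *Timp2* and *Timp3* held 79.9% to 84.3% of the members' CPM.

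The summed levels of some marker lists varied over the libraries in the same order at their ends as single members did. In bulk tissue, fewer cells of a type and less RNA per cell cannot be told apart. Of 9 markers of fibroblasts and progenitors, 6 had a row and 5 were tested, and their summed CPM was 7510, 5760 and 3450 in AdWT and 5980, 10300 and 5680 in AdKO. As for *Mmp3*, AdWT 3 was the lowest library of this sum and AdKO 2 the highest. The members *Timp2*, *Timp3*, *Adamts4* and *Adamtsl1* had these ends too, so they are not particular to *Mmp3*. Nearly all of the sum was *Col3a1*, a fibrillar collagen gene, at 3200 CPM in AdWT 3 and 9670 CPM in AdKO 2. *Lum*, a collagen-binding proteoglycan, had the same lowest and highest libraries, whereas *Pi16* and *Dpp4* were highest in AdKO 1 and *Cd34* in AdWT 1. Of 7 markers of lipid-associated macrophages, 6 had a row, and their summed CPM was 827, 508 and 251 in AdWT and 702, 723 and 1230 in AdKO. As for *Mmp12*, AdWT 3 was the lowest and AdKO 3 the highest, and the sum of the 9 general macrophage markers, 6 with a row and *Emr1* at 0, had the same lowest and highest libraries, at 471 and 1210 CPM, with AdWT 1 close to the highest at 1160 CPM. Of these, *Mrc1* and *Csf1r* were highest in AdKO 2 and *Lyz2* in AdWT 1. The members *Adamts15* and *Adamtsl3* had the same lowest and highest libraries as *Mmp12*. Of 8 white adipocyte markers, 6 had a row, with *Pnpla2* at 0, and their summed CPM was 46200 to 54700 in AdWT and 41400 to 42100 in AdKO. The white adipocyte sums did not overlap between the groups, and their highest library, AdWT 3, was also the highest for *Timp4*. *Fabp4* and *Lep* made up most of that sum and were lower in each AdKO library than in any AdWT library, whereas *Adipoq*, *Lipe* and *Plin1* overlapped between the groups, and *Plin1* was lowest in AdWT 3. The part of these markers in the values of *Mmp3*, *Mmp12*, *Timp4* and *Timp2* was not tested.

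**Figure D4:**
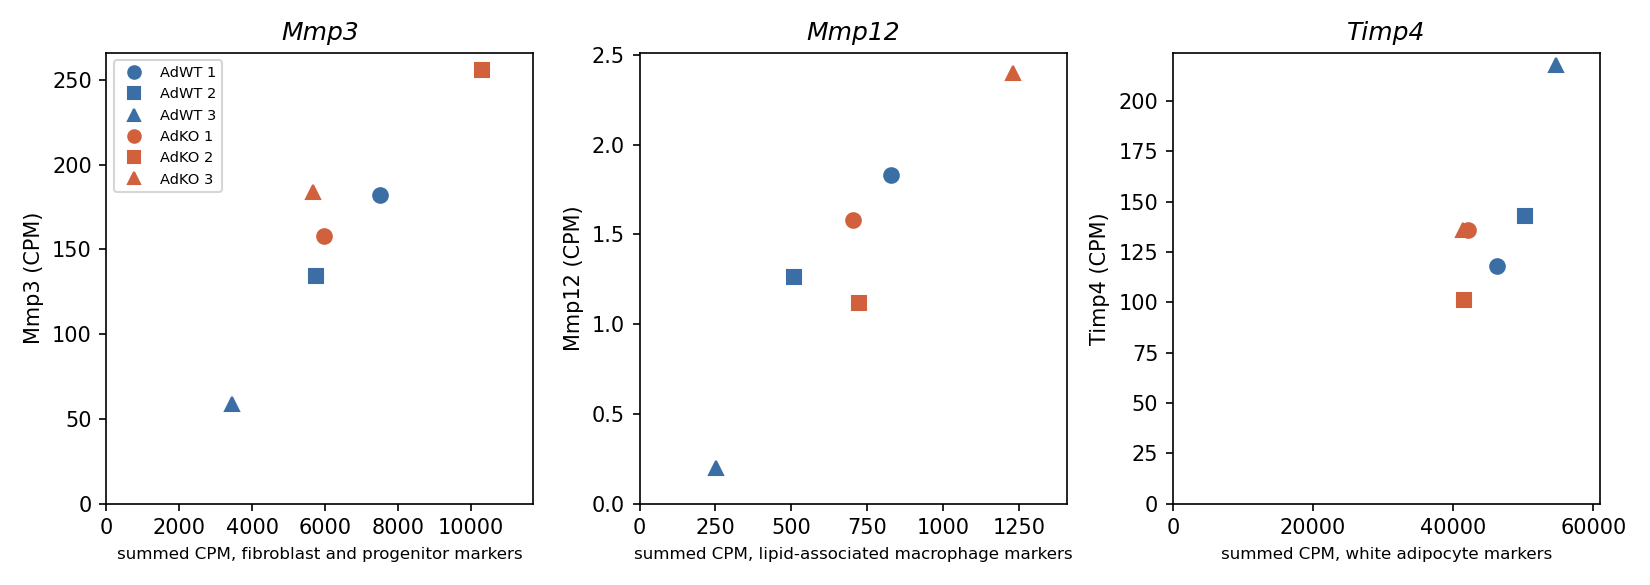
*Mmp3* against the summed CPM of fibroblast and progenitor markers, *Mmp12* against that of lipid-associated macrophage markers and *Timp4* against that of white adipocyte markers, 1 point a library (blue, AdWT; red, AdKO). AdWT 3 is at the lower left of the first and the second panel and at the upper right of the third.

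The remaining marker lists follow by their range over libraries. Skeletal muscle markers summed to 39.3, 192 and 20.3 CPM in AdWT, with AdWT 2 far above the others, and to between 6.25 and 7.36 CPM in AdKO. In edgeR, 7 of 7 tested were lower at an unadjusted *P* under 0.05, against 2.98% of all rows, and their part in the results was not tested. Neutrophil markers, of 6 of which 4 had a row and *Retnlg* was at 0, summed to 19.4 to 36.0 CPM in AdWT and 16.9 to 37.1 CPM in AdKO. Endothelial markers summed to 925 to 1330 and 898 to 1280 CPM, mural and smooth muscle markers to 92.1 to 159 and 153 to 192 CPM, and Schwann cell markers to 66.3 to 79.6 and 69.7 to 81.8 CPM, each AdWT then AdKO. Epithelial markers summed to 0.956 to 20.3 CPM in AdWT and 0.894 to 48.0 CPM in AdKO, high in AdWT 3 and AdKO 3. Lymph node markers, with *Cr2* at 0, stayed between 5.09 and 14.1 CPM over the 6 libraries.

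The wider matrix-protease system was described with lists of genes that act beside the members, and none of their genes passed the adjusted edgeR test over all 6 libraries. In plasminogen activation, the serine-protease cascade that can switch on pro-MMPs, 7 of 12 genes were tested, 6 of them with a log2 fold change below 0 (median −0.23). *Anxa2* and *S100a10*, which form a cell-surface receptor for plasminogen, had log2 fold changes of −0.22 (SE 0.119) and −0.05 (SE 0.130).

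Among genes for the activation, anchoring and clearance of MMPs, 7 of 14 were tested, 0 of them at an unadjusted *P* under 0.05, with a median log2 fold change of 0.22. *Lrp1*, the endocytic receptor that clears TIMPs and several of these proteases from the matrix, had 3230, 2980 and 2940 CPM in AdWT and 3450, 3780 and 3400 CPM in AdKO. Its groups did not overlap, with a log2 fold change of 0.22 (SE 0.0929, unadjusted *P* = 0.0515, adjusted *P* = 0.851). *Thbs2*, a matricellular protein that takes part in MMP2 clearance, had a log2 fold change of −0.25 (SE 0.176), and *Spock2*, a proteoglycan of the testican family, one of 0.28 (SE 0.192).

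Of the ADAM sheddases, the membrane-bound relatives of ADAMTS proteases, 5 of 11 were tested, with a median log2 fold change of 0.06. *Adam12* had 3.34, 3.11 and 3.01 CPM in AdWT and 1.79, 2.17 and 1.98 CPM in AdKO, with every AdKO library below every AdWT library (log2 fold change −0.67, SE 0.184, unadjusted *P* = 0.0076, adjusted *P* = 0.847). *Adam10*, which had the most reads of the sheddases with a row, had a log2 fold change of 0.06 (SE 0.117). Of the cathepsins, proteases mostly of the lysosome, and the cystatins, inhibitors of cysteine cathepsins, 3 of 12 were tested and had a median log2 fold change of 0.03.

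Among procollagen C-proteinases, astacins and matrix serine proteases, 8 of 13 were tested, with a median log2 fold change of 0.21. *Htra1*, a secreted serine protease of the matrix, had 204, 249 and 242 CPM in AdWT and 201, 187 and 185 CPM in AdKO, every AdKO library being lower (log2 fold change −0.28, SE 0.0908, unadjusted *P* = 0.0171, adjusted *P* = 0.851). *Pcolce* and *Pcolce2*, enhancers of procollagen C-proteinase, had log2 fold changes of 0.30 (SE 0.257) and 0.20 (SE 0.141). Of the other extracellular inhibitors, 6 of 10 were tested, 0 at an unadjusted *P* under 0.05, with a median of −0.19. *Itih5*, a hyaluronan-binding protein, had 3260 ± 712 CPM in AdWT and 2650 ± 384 CPM in AdKO (SD, *n* = 3 each).

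Of the proteoglycans and glycoproteins that ADAMTS proteases cut, 4 of 11 were tested, with a median log2 fold change of 0.36. Versican (*Vcan*) was at 0, aggrecan (*Acan*) had 1 count in all and 3 genes had no row. *Ncan*, with the most reads of the list, had a log2 fold change of −0.21 (SE 0.207). *Matn2* had one of 0.03 (SE 0.136), and *Vwf*, with 81 counts in all, one of 0.70 (SE 0.355). *Comp*, the pentameric glycoprotein of cartilage and tendon that ADAMTS7 and ADAMTS12 cleave, had 17.3, 11.4 and 15.4 CPM in AdWT and 39.6, 50.7 and 49.5 CPM in AdKO. Its groups were far apart, with a log2 fold change of 1.67 (SE 0.175, unadjusted *P* = 2.1e-05), and its adjusted *P* of 0.206 was the smallest of all tested rows. Of these proteases, *Adamts12* had a log2 fold change of −0.09 and *Adamts7* 46 counts in all. Of 8 markers of tendon and cartilage, 7 had a row, *Col2a1* was at 0 and the list summed to 23.4 to 25.6 CPM in AdWT and 17.6 to 24.3 CPM in AdKO. Of the microfibril partners of ADAMTS-like proteins, 5 of 10 were tested and their median log2 fold change was 0.03, while *Fbn1*, fibrillin-1, had a log2 fold change of −0.06 (SE 0.0624).

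The 20 members that were not tested had few or no reads. There were 8 at 0 in all 6 libraries: *Mmp1a*, *Mmp1b*, *Mmp16*, *Mmp20*, *Mmp21*, *Adamts8*, *Adamts13* and *Timp1*. Of the 12 above 0, 6 had at least 10 counts over the 6 libraries: *Adamts7* with 46, *Adamts6* with 36, *Adamts20* with 30, *Mmp19* with 23, *Mmp8* with 14 and *Reck* with 11. Exons of *Adamts7* overlap those of *Tbc1d2b* on the opposite strand, a row with 13924 counts. *Mmp19* was the one untested member whose groups did not overlap in CPM, but with 3, 3 and 1 counts in AdWT and 3, 4 and 9 counts in AdKO it was at or near the limit of 3 counts. The other 6 had between 1 and 9 counts in all, so a difference in any of these genes was not detectable at this depth. Gene models of the family numbered 52 in the annotation, and the 16 that had no row in this table were not analysed here. Among them were those of the gelatinases *Mmp2* and *Mmp9*, of the membrane-type *Mmp14* and of the proteases *Adamts1* and *Adamts2*.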

How the data were processed

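Raw counts per row for 6 libraries were deposited by the authors, who made stranded libraries from total RNA and aligned reads to mm9 with HISAT2. The counting tool and its strand setting were not given in the sources used here. All 37024 rows entered library sizes, and 17470 were at 0 in all libraries. Counts were compared with edgeR 4.0.16 (R 4.3.3) through glmQLFit and glmQLFTest, with rows kept by filterByExpr on the groups and TMM-scaled libraries, over all rows at once, with Benjamini-Hochberg adjustment and a threshold of 0.05. The study used DESeq2, which was run as an alternative (1.42.0). Standard errors were derived from each log2 fold change and its F statistic. Exact two-sided permutation tests used log2 CPM with 0.5 added. The common biological coefficient of variation was 0.196. Limits on a 0 cover counting error only. Exon lengths and coding sequences came from the GENCODE annotation of NCBIM37, read with Python 3.11.15 (numpy 2.4.6, pandas 2.3.3, matplotlib 3.10.9). Values are given for members with an unadjusted *P* under 0.05 or groups apart, the inhibitors, the 15 with the highest mean CPM, the highest of each class and *Mmp12*, and for pathway genes with an unadjusted *P* under 0.05 or the highest CPM. A pathway gene that met this rule is not reported here. The members and gene lists were chosen with earlier results of these data known. No batch is named in the labels.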

Additional observations from a re-analysis of the deposited data

How the results depend on the processing

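There were 15 alternatives: other scalings (RLE, upper quartile, library size only), other filters, a robust fit, a replicate block, rows of a symbol summed, each library left out in turn, and DESeq2. No member had an adjusted *P* under 0.05 under any of them. Of 238 member values, 232 kept their direction and 6 turned it, all 6 with a library left out: the log2 fold change of *Adamts5* ran from −0.16 to 0.19, of *Timp3* from −0.07 to 0.32, of *Adamtsl2* from −0.61 to 0.14 and of *Adamts4* from −0.19 to 0.51. The number of members at an unadjusted *P* under 0.05, 2 in the report, was 4 with at least 1 count in any library as the filter, where *Adamts15* and *Mmp3* joined, and between 1 (without AdKO 3) and 6 (without AdWT 1) with a library left out, and the cause was not tested. *Timp2* was among them under all 15, with an adjusted *P* between 0.347 and 0.998, and *Adamtsl3* under all but the fit without AdKO 3, with an adjusted *P* between 0.398 and 0.998. Over all rows, calls at an adjusted *P* under 0.05 numbered 27 with DESeq2, 1 with the filter of at least 1 count, 0 to 1 with a library left out and 0 otherwise. Rows at an unadjusted *P* under 0.05 were 272 higher and 294 lower in the report but 313 and 162 with library size only, which moved the median of all rows to 0.054, and they numbered 1208 without AdWT 1 and 329 without AdWT 2, against 566. Libraries of the same number correlated at −0.076, −0.132 and 0.33 in their deviations, and whether they share more than a number was not tested. Epithelial markers were high in AdWT 3 and AdKO 3, with sums of 20.3 and 48.0 CPM. The replicate block left 2 members at an unadjusted *P* under 0.05. Depth limits the genes under about 50 counts in all, for which only large differences could have been seen.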
